A study of Mus musculus with 4 samples.

Results

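Elastic fibre genes encode elastin (Eln), the fibrillins Fbn1 and Fbn2, the fibulins Fbln1, Fbln2, Fbln5 and Efemp2, and the microfibril-associated proteins Mfap2, Mfap4 and Mfap5. Their probe sets were taken by gene symbol from the platform annotation, as all probe sets that carry 1 symbol and that symbol alone. Of the 10 genes, 8 had such a probe set, 16 probe sets in all among 34958 with 1 symbol, and Fbn1 and Efemp2 were not analysed here. Of the 8, 6 lay above a filter on low signal, which keeps probe sets whose mean over the arrays exceeds the median probe set (27.4 intensity units), among 11718 genes that did so. The samples were aortas of apoE-/- mice of the C57BL/6 strain (B6), labelled with atherosclerosis, and of Ath29 congenic mice, also listed under the strain C57BL/6 and labelled as resistant. Weaning was at 3 weeks of age, and at 4 weeks the mice either stayed on chow or received Western food for 2 weeks. The apoE-/- genotype is stated for the B6 controls, and the labels do not state it for the Ath29 mice. Each of the 4 groups (B6 chow, B6 Western, Ath29 chow, Ath29 Western) has 1 array, so no value below has a replicate error, and whether an array holds RNA of 1 animal or a pool is not stated.

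Elastic fibres let the aorta stretch and recoil with each heartbeat. Smooth muscle cells and fibroblasts secrete tropoelastin, the soluble form of elastin, which gathers on microfibrils built of fibrillins and is crosslinked by lysyl oxidases. Fibulins link tropoelastin to the microfibrils and to the crosslinking enzymes, and microfibril-associated proteins bind fibrillin and elastin. Most aortic elastin is laid down before and soon after birth, and proteases released by macrophages can break it down in diseased vessels.

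Probe set intensities on the 4 arrays had medians between 27.9 and 28.8 before they were shifted to a common median. The extract protocol names liver, while the other labels name aorta. The smooth muscle markers Acta2 and Myh11 read at least 10390 and 832.6 on every array, the fibroblast markers Col1a1 and Pdgfra at least 2305 and 1146, while of 12 listed hepatocyte genes 3 were measured, with Alb at most 63.97, Fga at most 33.87 and Cyp2e1 between 2542 and 4852. Heart muscle and fat signals differed between arrays and were highest in B6 Western. Summed over 13 heart muscle genes of 15 listed, the intensity was 13200 in B6 Western and between 985.9 and 1409 elsewhere. Over 9 of 10 listed brown fat genes it was 19830 in B6 Western and between 10710 and 15840 elsewhere. Actin control signal from the 3' end exceeded that from the 5' end by 24.4 to 31.5 times, most in Ath29 chow, and Gapdh control signal by 22.8 to 31.3 times, least in Ath29 chow. Actin signal from the 3' end exceeded that from the middle by 5.10 times in B6 chow and 5.63 in B6 Western. In Ath29 chow this was 10.23 times and in Ath29 Western 7.62, so this measure of RNA quality was higher on both Ath29 arrays. The Gapdh ratio was lower on both, at 22.8 and 28.0 against 31.3 and 29.0 in B6, chow first. With 1 array per group, strain and array cannot be told apart here. In whole-tissue RNA, fewer cells of a type and less RNA per cell cannot be told apart.

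The sequences just upstream of the transcription start are shown for Fbln5, Fbln1 and Mfap2, the 3 measured elastic fibre genes found in the RefSeq promoter table (GRCm38.p6). They are shown because these genes read lower together on Western diet in B6 aorta with the arrays at a common median (Fbln5 not with the fibroblast and collagen scaling described further on, and Fbln1 not when its _a_at probe set is left out). Each line gives 250 bases, 5′ to 3′ on the gene's strand, that end at the most upstream listed start. Capitals mark matches on either strand to the GC box, GGGCGG, a site bound by Sp1-type factors. The windows lie at chr12:101819120-101819369 on the minus strand for Fbln5, at chr15:85205699-85205948 on the plus strand for Fbln1 and at chr4:141010174-141010423 on the plus strand for Mfap2.
Fbln5: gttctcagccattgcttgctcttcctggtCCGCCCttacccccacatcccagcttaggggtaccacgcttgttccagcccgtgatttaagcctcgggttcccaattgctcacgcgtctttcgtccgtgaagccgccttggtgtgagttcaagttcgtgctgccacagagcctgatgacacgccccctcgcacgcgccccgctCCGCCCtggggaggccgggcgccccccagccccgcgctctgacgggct
Fbln1: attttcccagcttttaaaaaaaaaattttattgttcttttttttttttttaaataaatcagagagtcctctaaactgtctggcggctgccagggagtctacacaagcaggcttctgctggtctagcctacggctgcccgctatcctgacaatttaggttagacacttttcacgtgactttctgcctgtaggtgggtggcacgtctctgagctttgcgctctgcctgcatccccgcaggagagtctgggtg
Mfap2: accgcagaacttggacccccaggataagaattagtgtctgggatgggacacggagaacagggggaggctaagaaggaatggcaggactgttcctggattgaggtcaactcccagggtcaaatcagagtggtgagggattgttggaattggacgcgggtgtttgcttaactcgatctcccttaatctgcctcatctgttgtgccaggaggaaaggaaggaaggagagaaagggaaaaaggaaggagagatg

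The Fbln5 window holds 2 matches to the GC box, and the Fbln1 and Mfap2 windows hold 0, against a share of 32.7% of all 32851 promoter windows of this length with at least 1 match. None of the 3 windows holds TATAAA, found in 12.4% of all windows, or the CArG box of smooth muscle genes, found in 1.47%. The Fbln5 window is 65.2% G and C, that of Mfap2 51.2% and that of Fbln1 46.4%, against a median of 52.4% over all windows. Both strands were searched, and a match describes letters only.

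**Figure D1:**
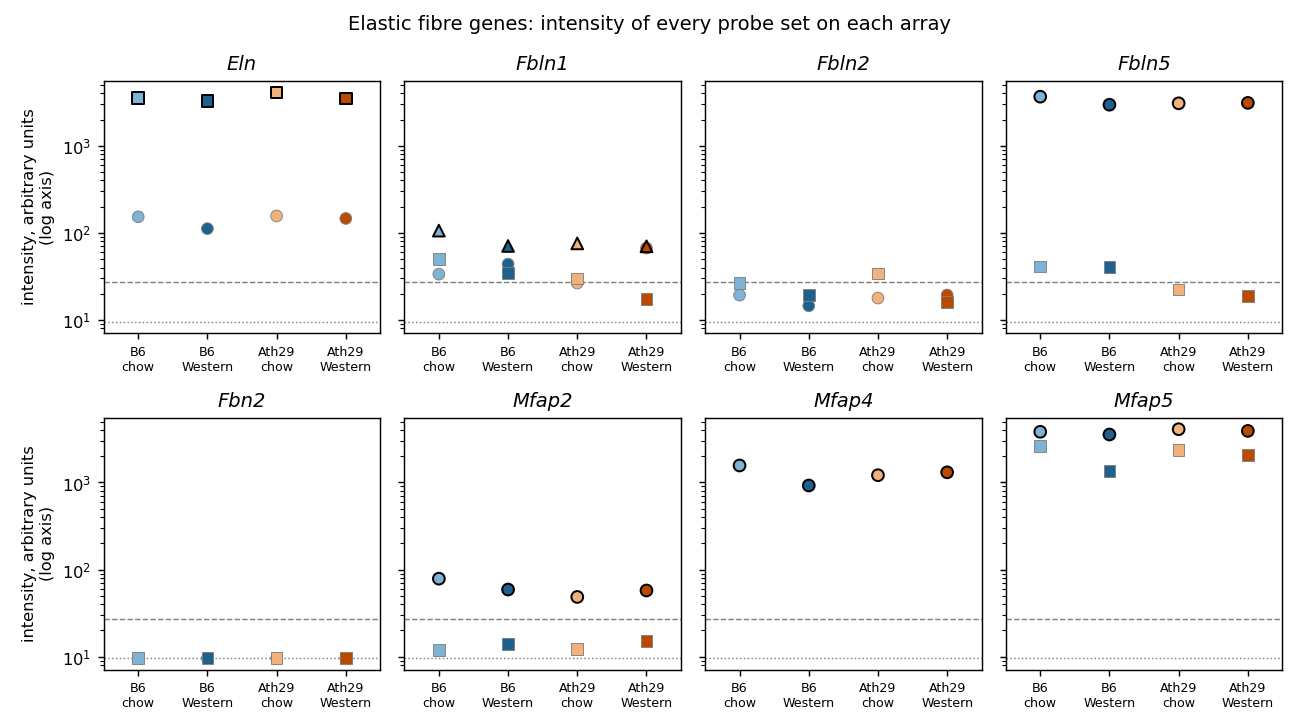
Intensity of each elastic fibre probe set (log axis, arbitrary units, after the shift to a common median) on the 4 arrays, 1 array per group; marker shapes separate probe sets of a gene, black outlines mark the one read for the gene, the dashed line is the filter at 27.4 and the dotted line the floor at 9.59. Eln, Fbln5 and Mfap5 have a probe set at 2959 or more on every array and Mfap4 one at 922.8 or more, while Fbn2 lies at the floor on all 4 (its 2 probe sets overlap).

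Eln encodes tropoelastin, the bulk protein of the fibre. On the B6 arrays its brighter probe set read 3543 on chow and 3279 on Western diet, and on the Ath29 arrays 4087 and 3477. With the arrays at a common median the highest was Ath29 chow and the lowest B6 Western, 0.32 log2 units apart. As log2 differences, Ath29 mice exceeded B6 mice by 0.21 on chow and by 0.08 on Western diet. The diet difference, Western minus chow, was -0.11 for B6 and -0.23 for Ath29. For the dimmer Eln probe set the B6 values were 152.9 and 111.8 and the Ath29 values 156.4 and 146.4, chow first. Its strain differences were 0.03 on chow and 0.39 on Western diet, and its diet differences -0.45 for B6 and -0.09 for Ath29. Both gave the same sign in each of the 4 comparisons, with different sizes.

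Those sizes can be read against the scatter between probe sets of 1 gene. Over 4663 genes with several probe sets above the filter, the difference between 2 arrays varied within a gene with an SD of 0.39 for strain on chow, 0.35 for strain on Western diet, 0.35 for diet in B6 and 0.34 for diet in Ath29 mice. Over the 1518 genes whose probe sets all averaged above 100 it was 0.30, 0.25, 0.24 and 0.22. This scatter covers probe sets and not mice, and probe sets of a gene can read different transcripts. Every Eln difference from the brighter probe set lay within 1 SD over the larger set of genes, and that for diet in Ath29 mice (-0.23) lay just beyond the 0.22 of the brighter genes.

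Fbln5, the fibulin that tethers tropoelastin to cells and microfibrils, read 3658 on chow and 2959 on Western diet in B6 mice, against 3072 and 3106 in Ath29 mice. With the arrays at a common median B6 chow stood above the others, which lay close together. Its strain difference was -0.25 on chow and 0.07 on Western diet. Its diet difference was -0.31 for B6 and 0.02 for Ath29. A second Fbln5 probe set, near the filter, read 41.0 and 40.6 on the B6 arrays and 22.4 and 18.9 on the Ath29 arrays. Both Ath29 values lie below 27.4, the level of the filter.

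Fbln1, a fibulin of vessel wall matrix that binds elastin and fibronectin, was read by 3 probe sets. The probe set read for the gene gave 106.1 on chow and 70.7 on Western diet in B6 mice, while the Ath29 arrays gave 75.7 and 70.1. B6 chow was again the highest array and the other arrays lay close together. Fbln1 was 1.5-fold lower on Western diet than on chow in B6 mice and 1.40-fold lower in Ath29 than in B6 mice on chow. The other Fbln1 probe sets disagreed with each other. One read 33.6 on chow and 43.8 on Western diet in B6 mice, while the Ath29 arrays gave 26.6 and 66.9, and another 50.2 and 34.7, then 29.9 and 17.3. Their diet differences in Ath29 mice were 1.33 and -0.79, opposite in sign, against -0.11 for the probe set read, and each of these 2 has 1 value below 27.4.

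Fbln2, a fibulin found beneath endothelium and in developing vessels, lay below the filter. Its probe sets read 14.5 to 34.1 over all arrays, and only 1 of these 8 values, that of Ath29 chow on one probe set, exceeded 27.4. Fbn2, the fibrillin most abundant in developing tissue, lay at the floor of 9.59, to which lower values were raised, on every array with both probe sets. No difference is given for Fbn2. Just above the filter lay the second Fbln5 probe set, with a mean of 28.99, and just below it the brighter Fbln2 probe set, with 23.13.

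Mfap4, a microfibril-associated glycoprotein that binds elastin and fibrillin, had the widest range of the 6 genes as read from their brightest probe sets (0.76 log2 units). Dimmer probe sets of Fbln1 (1.54 and 1.33), Fbln5 (1.12) and Mfap5 (0.93) ranged wider, and Mfap4 has 1 probe set only. In B6 mice it read 1566 on chow and 922.8 on Western diet, and in Ath29 mice 1211 and 1307. B6 chow was highest and B6 Western lowest, with both Ath29 arrays between them. Western diet was lower than chow by 1.70-fold in B6 mice (log2 difference -0.76), a size reached in either direction by 9.82% of all genes. In Ath29 mice the diet difference was 0.11. Between strains, Ath29 mice read lower on chow (-0.37) and 1.42-fold higher on Western diet (0.50).

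Mfap5, which binds fibrillin and tempers growth factor signals in the wall, was read by a pair of bright probe sets. The brighter one gave 3815 on chow and 3552 on Western diet in B6 mice, while the Ath29 arrays gave 4085 and 3906, with the arrays close together. The other gave 2597 and 1359, then 2364 and 2061, in that order, with B6 Western well below the rest. The diet difference in B6 mice was -0.10 with the first and -0.93 with the second, and the strain difference on Western diet 0.14 and 0.60. Both probe sets put B6 Western lowest with the arrays at a common median, but the size of the Mfap5 difference depends on the probe set.

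Mfap2, a small microfibril protein that binds fibrillin and tropoelastin, read 78.6 on chow and 59.0 on Western diet in B6 mice, while the Ath29 arrays gave 48.5 and 57.5. B6 chow was highest and Ath29 chow lowest. Ath29 mice were 1.62-fold lower than B6 mice on chow (log2 difference -0.70, a size that 11.4% of all genes reached) and differed by -0.04 on Western diet. Diet differences were -0.41 in B6 and 0.25 in Ath29 mice. A second Mfap2 probe set read 11.9 to 15.2, below the filter on every array.

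**Figure D2:**
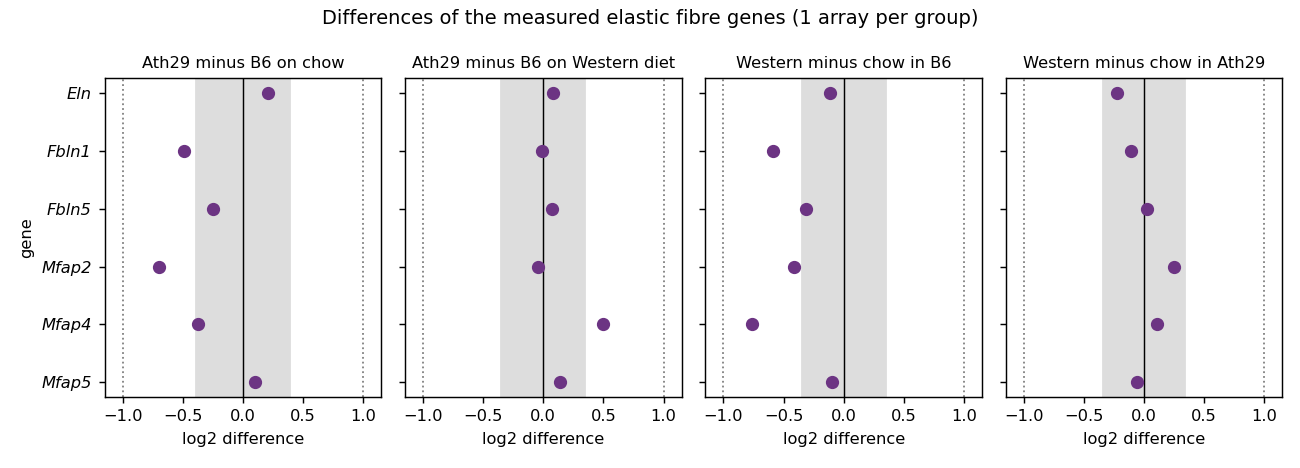
Log2 differences of the 6 measured elastic fibre genes in the 4 comparisons; grey bands span 1 SD of the scatter between probe sets of a gene on either side of 0 and dotted lines mark 2-fold. All 6 points lie below 0 for Western minus chow in B6 with the arrays set to a common median (4 do so with a common smooth muscle median and 3 with a common fibroblast and collagen median), and 0 of the 24 points lie beyond 2-fold.

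The diet comparison asks what a short period on Western food changes in the aorta. In B6 mice all 6 elastic fibre genes read lower on Western diet with the arrays at a common median, from -0.76 for Mfap4 to -0.10 for Mfap5, though with a common smooth muscle median Eln and Mfap5 read higher and 4 lower, and with a common fibroblast and collagen median Eln, Fbln5 and Mfap5 read higher and 3 lower. The median log2 difference was -0.36. Of all genes, 56.6% read lower and the median was -0.06. With Fbln1 and Mfap4, 2 of the 6 were at least 1.5-fold lower, against 7.13% of all genes, and 0 were at least 1.5-fold higher, against 9.96%. Fbln1 lay at that cut and fell short of it with no shift (-0.54) and with quantile normalization (-0.56). With a common smooth muscle median both genes fell short, Fbln1 at -0.34 and Mfap4 at -0.51. With a common fibroblast and collagen median both fell short too, at -0.24 and -0.42. At 2-fold the counts were 0 lower and 0 higher, against 1.17% and 4.11% of all genes. By probe set, 10 of the 11 above the filter read lower, the exception being an Fbln1 probe set. Without the Fbln1 probe set whose name ends in _a_at, Fbln1 read 0.38 higher and 5 of 6 genes read lower.

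In Ath29 mice the diet difference had no common direction over the elastic fibre genes. Eln (-0.23), Fbln1 (-0.11) and Mfap5 (-0.06) read lower on Western diet, Mfap2 (0.25), Mfap4 (0.11) and Fbln5 (0.02) higher, though Mfap4 (-0.02) and Fbln5 (-0.11) read lower with the smooth muscle scaling and Fbln5 (-0.02) with the fibroblast and collagen scaling, and Fbln5 (-0.03) with a common 75th percentile. With the mean of all probe sets Fbln5 gave -0.12 and Fbln1 0.14, and without its _a_at probe set Fbln1 gave 1.33. The median was -0.02, against 0.04 for all genes, of which 43.8% read lower. At 1.5-fold, 0 genes were higher and 0 lower, against 6.03% and 4.35% of all genes, and at 2-fold again 0 and 0, against 1.33% and 0.853%. By probe set, 1 of the 11 above the filter, of Fbln1, was at least 2-fold higher. All 6 gene differences lay within the SD of 0.34 between probe sets, and Eln beyond the 0.22 of the brighter genes.

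The comparison of strains asks which transcripts differ in mice that carry the Ath29 segment. On chow, Fbln1, Fbln5, Mfap2 and Mfap4 read lower in Ath29 mice, and Eln and Mfap5 higher, though Mfap5 gave -0.02 with the mean of all probe sets. The median of the 6 was -0.31 against -0.08 for all genes, of which 59.0% read lower. Mfap2 was the 1 gene at least 1.5-fold lower, against 9.68% of all genes, and 0 were at least 1.5-fold higher, against 7.23%. At 2-fold 0 were lower and 0 higher, against 1.95% and 2.16%. Eln at 0.21 and Mfap2 at -0.70 were the ends of this range on the same array pair.

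On Western diet, Eln, Fbln5, Mfap4 and Mfap5 read higher in Ath29 mice, with Mfap4 at 0.50 and the others at 0.07 to 0.14, and Fbln1 (-0.01) and Mfap2 (-0.04) lower, though Eln, Fbln5 and Mfap5 read lower with the smooth muscle and with the fibroblast and collagen scaling, which left Mfap4 alone higher, and Fbln1 read 0.01 higher with a common 75th percentile. With the mean of all probe sets Fbln5 gave -0.52, and without its _a_at probe set Fbln1 gave 0.61. The median was 0.08 against 0.00 for all genes, of which 49.4% read lower. At 1.5-fold 0 genes were higher and 0 lower, against 5.61% and 7.89% of all genes. At 2-fold 0 were higher and 0 lower, against 0.845% and 2.03%. By probe set, 2 of the 11 above the filter were at least 2-fold lower, the second Fbln5 probe set (-1.11) and an Fbln1 probe set (-1.01). None of the genes but Mfap4 differed by more than 1 SD of the scatter between probe sets. The strain and the diet differences share arrays: B6 Western enters the strain difference on Western diet with the opposite sign to the diet difference in B6, and B6 chow enters both the strain difference on chow and the diet difference in B6.

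The 6 genes were tested among all 11718 in an additive limma fit of strain and diet, whose only error term is the departure from additivity. The fit called 0% of all genes for strain and 0% for diet at an adjusted p under 0.05, while 304 and 291 genes had an unadjusted p under 0.05 and 0 of the elastic fibre genes did. The adjusted p was 1 for every elastic fibre gene in both terms. Fitted strain effects ran from -0.37 for Mfap2 to 0.15 for Eln, and diet effects from -0.35 for Fbln1 to -0.08 for Mfap2 and Mfap5, with standard errors of 0.24 to 0.30 log2 units.

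With the arrays at a common median, B6 chow was the highest array for 4 of the 6 genes and B6 Western the lowest for 4, against 34.9% and 27.4% of all genes. This order depends on the scaling. With the fibroblast and collagen scaling Eln (0.24), Fbln5 (0.04) and Mfap5 (0.24) read higher in B6 Western than in B6 chow. The arrays named next are those at a common median. For the remaining pair, Eln and Mfap5, Ath29 chow was highest, and the lowest array of Fbln1 was Ath29 Western and that of Mfap2 Ath29 chow.

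The lysyl oxidases crosslink tropoelastin. Of 5 listed, Lox, Loxl1, Loxl3 and Loxl4 were measured. With the arrays at a common median all 4 read lowest in B6 Western, against 27.4% of all genes. The highest array was B6 chow for Lox and Loxl3 and Ath29 chow for Loxl1 and Loxl4. With the fibroblast and collagen scaling 1 of the 4 read higher in B6 Western than in B6 chow, so this order depends on the scaling. Lox, the principal crosslinking enzyme of the aorta, read 1693 on chow and 1101 on Western diet in B6 mice, while the Ath29 arrays gave 1210 and 1288. Loxl1, which works with Fbln5 at elastic fibres, read 4952 and 3922, then 5058 and 4926. In B6 mice the 4 genes were lower on Western diet (3 of 4 with the fibroblast and collagen scaling), with a median of -0.51 and 2 of them (Lox at -0.62 and Loxl3 at -0.65) at least 1.5-fold lower, against 56.6% of all genes lower and 7.13% at least 1.5-fold lower. Strain medians were -0.11 on chow and 0.38 on Western diet, and the diet median in Ath29 mice was 0.03. The smooth muscle scaling gave 0.10, 0.21 and -0.10 for these. At a common median 0 of the 4 differed by 2-fold in any comparison.

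The latent TGF-beta binding proteins sit on fibrillin microfibrils, and Ltbp4 also assists elastin assembly. All 4 were measured. In B6 mice all 4 were lower on Western diet (median -0.37, Ltbp2 at -0.64), or 3 of 4 with the fibroblast and collagen scaling, against 56.6% of all genes. On Western diet all 4 were higher in Ath29 than in B6 mice (median 0.29, Ltbp2 at 0.54), or 2 of 4 with that scaling, where 49.4% of all genes read lower at a common median. Ltbp3 read 6264 on chow and 4811 on Western diet in B6 mice, while the Ath29 arrays gave 5519 and 5957. Ltbp4 read 63.3 and 49.0, then 33.0 and 58.9, lowest in Ath29 chow, with a strain difference of -0.94 on chow. None of the 4 reached 2-fold in any comparison.

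Of 19 other listed elastic fibre and microfibril genes, 14 were measured. With the arrays at a common median their strain medians were -0.18 on chow and 0.11 on Western diet, against -0.08 and 0.00 for all genes. Their diet medians were -0.16 for B6 and 0.18 for Ath29, against -0.06 and 0.04. The smooth muscle scaling gave 0.02, -0.07, 0.08 and 0.05 in the same order. The fibroblast and collagen scaling gave -0.09, -0.19, 0.18 and 0.14, so most of these signs depend on the scaling. At 2-fold, Vcan (versican, a large proteoglycan that binds fibrillin and fibulins, -1.14) and Adamtsl4 (a microfibril-binding protein, -1.13) were lower in Ath29 mice on chow, against 1.95% of all genes. Fbln7 (a further fibulin, 1.36) was higher on Western diet in Ath29 mice, against 1.33%. The smooth muscle scaling raises all strain differences on chow together (median of all genes from -0.08 to 0.13) and leaves Vcan and Adamtsl4 short of 2-fold. Vcan read 1317 on chow and 890.9 on Western diet in B6 mice, while the Ath29 arrays gave 599.4 and 1141. Efemp1, another fibulin of the Efemp2 type, read 611.2 and 697.6, then 768.0 and 765.2, so its B6 chow value was the lowest. Bgn, a small proteoglycan that binds tropoelastin, read 8052 to 8956 and differed by at most 0.15 in any comparison.

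Of 9 listed genes of the elastin receptor complex and of integrins that bind microfibrils, 8 were measured and 0 differed by 2-fold in any comparison. In B6 mice 7 of the 8 were lower on Western diet (median -0.30; 5 of 8 with the smooth muscle scaling and 3 of 8 with the fibroblast and collagen scaling), among them Itgav at -0.40 and Itgb3 at -0.59, partners in a receptor that binds fibrillin. Itga5, the fibronectin receptor subunit, was the exception at 0.64, and 56.6% of all genes read lower.

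Of 15 listed proteases that cut elastin and their inhibitors, 11 were measured, and Mmp9, Mmp12 and Mmp7 lay below the filter. The diet medians of the 11 were -0.09 for B6 and 0.08 for Ath29. They were 0.16 and -0.05 with the smooth muscle scaling and 0.26 and 0.04 with the fibroblast and collagen scaling. In B6 mice 8 of the 11 read lower on Western diet, against 56.6% of all genes. That count was 2 with the smooth muscle scaling and 0 with the fibroblast and collagen scaling. At 2-fold, Ctss was higher on Western diet in B6 mice, against 4.11% of all genes. Ctss and Timp1 were higher on it in Ath29 mice, against 1.33%. Ctss, an elastin-cutting cathepsin of macrophages, was higher on Western diet by 1.43 in B6 and 1.24 in Ath29 mice. It read 1280 on chow and 3454 on Western diet in B6 mice, while the Ath29 arrays gave 1390 and 3292, so both Western arrays stood above both chow arrays. Over 13 of 16 listed macrophage genes, of which Ctss is 1, the median diet difference was 0.87 in B6 and 0.67 in Ath29 mice. Timp1, an inhibitor of matrix metalloproteinases, read 540.8 and 624.6, then 249.4 and 741.0, diet differences of 0.21 for B6 and 1.57 for Ath29, with a strain difference of -1.12 on chow. With the arrays at a common median Timp1 was thus at least 2-fold lower in Ath29 than in B6 mice on chow, against 1.95% of all genes. The smooth muscle scaling, which raises all strain differences on chow together, leaves it short of 2-fold. Mmp2, a gelatinase that also cuts elastin, differed by -0.31 and 0.13 between diets, and Timp3, an inhibitor bound to matrix, by -0.03 and 0.03. The other cathepsins of this list, Ctsk, Ctsl and Ctsb, differed between diets by -0.19, -0.03 and 0.12 in B6 mice. In Ath29 mice they differed by 0.06, -0.01 and 0.01.

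**Figure D3:**
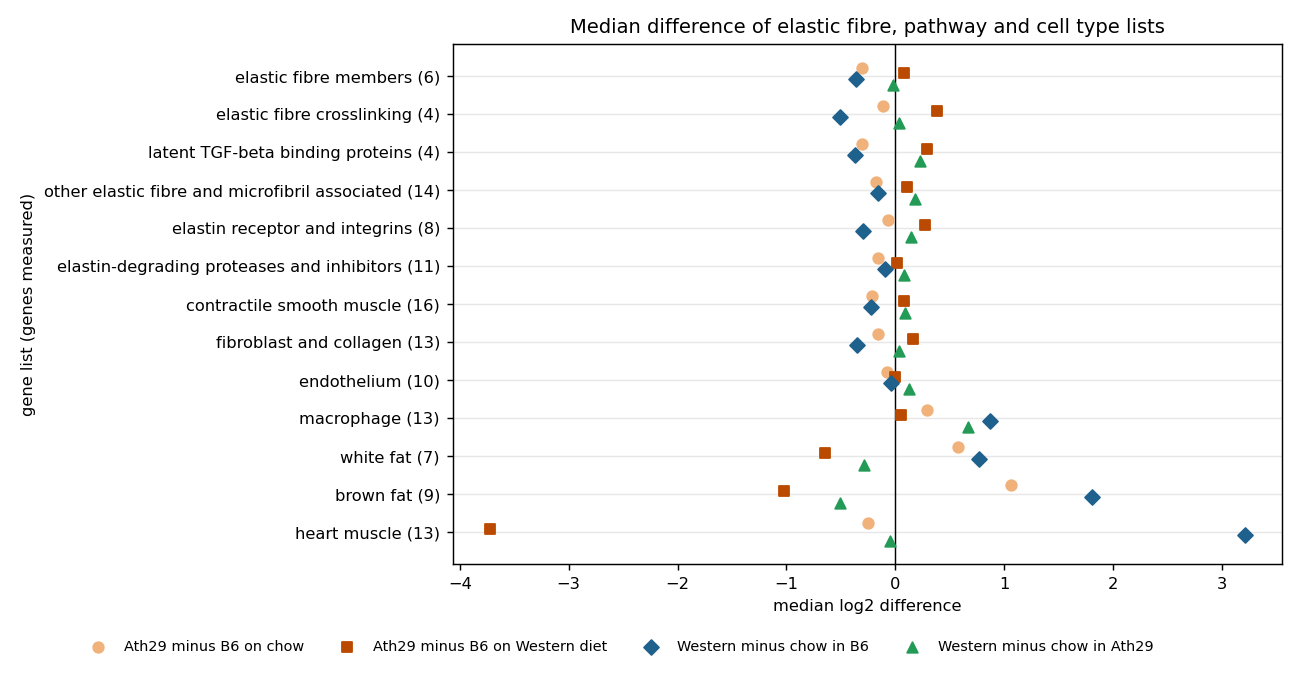
Median log2 difference of each gene list in the 4 comparisons, with the number of measured genes in brackets; 1 array per group. The elastic fibre genes, at -0.36 for Western minus chow in B6, lie beside the fibroblast and collagen list at -0.35 and the smooth muscle list at -0.22, while heart muscle lies at 3.21 and brown fat at 1.81; arrays are set to a common median, and tissue scalings move all lists together.

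Genes of the cells that make elastic fibres differed in the same comparisons. For Western minus chow in B6, 15 of the 16 contractile smooth muscle genes and 11 of the 13 measured fibroblast and collagen genes read lower, with medians of -0.22 and -0.35. With the smooth muscle scaling 8 of the 13 fibroblast and collagen genes read lower, and with the fibroblast and collagen scaling 4 of the 16 smooth muscle genes. Scaled to its own median, a list gave 8 of 16 or 7 of 13, counts that this scale largely fixes in advance. At a common median 56.6% of all genes read lower. On the same array pair the white fat list had a median of 0.77, brown fat 1.81 and heart muscle 3.21. For Ath29 minus B6 on chow, all 16 smooth muscle genes read lower, with a median of -0.21, where 59.0% of all genes did, and brown fat had a median of 1.06. The count was 12 with the fibroblast and collagen scaling, and 8 with their own median as the scale, which again largely fixes it. The smooth muscle list summed to 68210 on chow and 60520 on Western diet in B6 mice, and to 58480 and 62730 in Ath29 mice. The fibroblast and collagen list summed to 53310 and 41310, then 47730 and 46950. The part of these tissue signals in the elastic fibre differences was not tested. The strain difference on chow and the diet difference in Ath29 mice, which do not use B6 Western, had elastic fibre medians of -0.31 and -0.02.

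With the arrays set to a common median of the smooth muscle genes, the elastic fibre medians were -0.11 for strain on chow, -0.10 for strain on Western diet, -0.11 for diet in B6 and -0.15 for diet in Ath29 mice. With a common median of the fibroblast and collagen genes they were -0.22, -0.22, -0.01 and -0.07. For Western minus chow in B6, 4 of the 6 genes then read lower with the first and 3 with the second. Both scalings move all genes together: the median of all genes went from -0.08 to 0.13, from 0.00 to -0.17, from -0.06 to 0.19 and from 0.04 to -0.09 with the smooth muscle scaling, and to 0.01, -0.29, 0.29 and 0.00 with the fibroblast and collagen scaling. The elastic fibre median minus that of all genes was -0.23, 0.07, -0.30 and -0.07 in the 4 comparisons, which adding a constant to an array cannot change. With the filter at the 75th percentile, which leaves 4 elastic fibre genes, it was 0.02 for strain on chow and -0.15 for diet in B6, and without _s_at, _x_at and _a_at probe sets it was -0.14 for diet in B6. Of the genes at least 2-fold apart, the share that was higher went from 52.5% to 80.8% for strain on chow, from 29.4% to 12.0% for strain on Western diet, from 77.9% to 94.5% for diet in B6 and from 60.9% to 38.0% for diet in Ath29 mice with the smooth muscle scaling. With the fibroblast and collagen scaling these shares were 68.8%, 5.10%, 96.7% and 54.3%, and with a common 75th percentile the first was 64.6%. Mfap4 kept its sign under every processing tried for 3 comparisons, at -0.80 to -0.42 for diet in B6, 0.21 to 0.60 for strain on Western diet and -0.37 to -0.17 for strain on chow. It has 1 probe set, far above the filter, so only the normalization and scaling choices could change its values. Mfap2 kept its sign for all 4 comparisons in the 10 alternatives that measured it. It has 1 probe set above the filter, so the same limit holds, and its strain difference on Western diet came as near to 0 as -0.02.

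**Figure D4:**
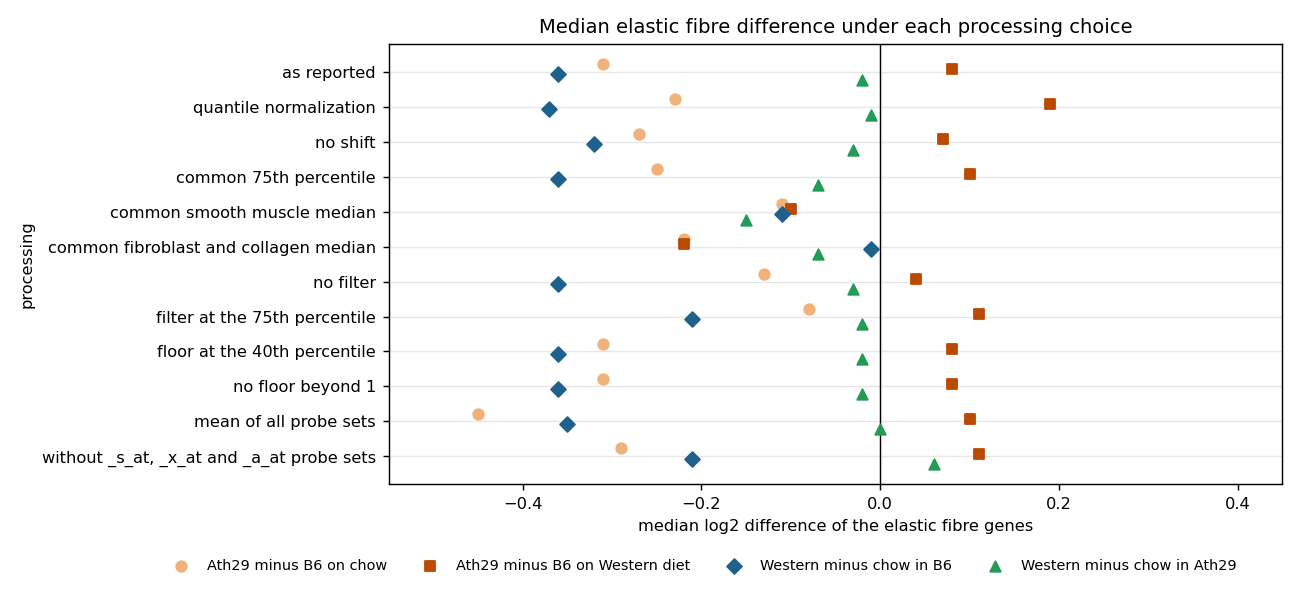
Median log2 difference of the elastic fibre genes under each processing choice, 1 row per choice and 1 marker per comparison. The median for Western minus chow in B6 lies between -0.37 and -0.01, and that for Ath29 minus B6 on Western diet crosses 0 under the smooth muscle (-0.10) and the fibroblast and collagen (-0.22) scaling.

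Patterns over 4 arrays are shared by many genes. Counting genes whose centred log2 values stay within 0.1 of those of a reference on every array gave 182 for Eln and 54 for Mfap4. Nearest to Eln were Nup62, Atm, Adamts10, Wbp4 and Snord104, at largest distances of 0.013 to 0.025, and nearest to Mfap4 were Zfp825, 4930562F07Rik, Gria4, Zfp579 and Frmd6, at 0.028 to 0.054. Adamts10, a protease of fibrillin microfibrils from the list above, is among them, with B6 values of 178.2 and 161.7 and Ath29 values of 205.1 and 169.6, chow first.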

How the data were processed

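RNA of 4 mouse aorta samples, 1 per group, was measured on Affymetrix arrays, from biotin-labelled cRNA (8 ug total RNA as input, per the labels' protocols). The authors deposited 1 table of intensity values for 45101 probe sets, on a linear scale as read from the values. Their software, background correction and normalization are not given in the sources at hand. Control probe sets (64) were left out, log2 values were taken, arrays were brought to the same median by factors of 0.990 to 1.02, and values below the 25th percentile (9.59) were raised to it. Probe sets with a mean above the median (27.4) were kept, 22518 in all, and a gene was read from its brightest one. Symbols were updated through gene identifiers to the GRCm38.p6 table, in which 34754 of 34958 were found. The additive fit used limma 3.58.1 in R 4.3.3 across all 11718 genes with 1 residual degree of freedom. It was tested on simulated data whose strain differences were larger than any fitted for an elastic fibre gene, so its power at the fitted sizes was not tested. Other steps used Python 3.11.15. With 4 arrays precision is limited by their number. Every elastic fibre gene and probe set was named, genes of the pathway lists by list, and the 5 genes nearest in pattern to Eln and to the member of widest range. Members and lists were chosen with earlier results of these data known. Alternatives numbered 11 for normalization, filter, floor and probe sets per gene, and the fold threshold.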

Additional observations from a re-analysis of the deposited data

Results flagged for a closer look

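Mfap4, Mfap2 and Fbln5 read lower on Western diet than on chow in B6 mice and higher in Ath29 mice, and are listed because 2 groups moved in opposite directions. The strain by diet difference, that is the diet difference in Ath29 minus that in B6 mice, was 0.87 log2 units for Mfap4, 0.66 for Mfap2 and 0.32 for Fbln5. With 1 array per group the difference was not tested, and the Ath29 side is small in each, at 0.11 for Mfap4, 0.25 for Mfap2 and 0.02 for Fbln5. With the smooth muscle scaling Mfap4 (-0.02) and Fbln5 (-0.11) read lower on Western diet in Ath29 mice too, and with the fibroblast and collagen scaling Fbln5 gave -0.02 there and read higher in B6. Fbln5 in Ath29 mice also gave -0.03 with a common 75th percentile and -0.12 with the mean of all probe sets, so that it kept its sign in 7 of 11 alternatives. Heart muscle and fat signal was highest in B6 Western. With the arrays at a common median, heart muscle and brown fat had list medians of 3.21 and 1.81 for Western minus chow in B6. In Ath29 mice these medians were -0.05 and -0.51. With the smooth muscle scaling the Ath29 medians were -0.18 and -0.64. The part of heart muscle and fat signal in the diet differences of Mfap4, Mfap2 and Fbln5 was not tested.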

How the results depend on the processing

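Medians over the elastic fibre genes were counted as moved when they changed by over 0.1 log2 units, and single genes when they changed by over 1 SD of the scatter between probe sets. Of 44 alternative medians 12 moved. Of 256 alternative values for single genes 5 moved and 23 had the other sign. Many of the 256 could not change, because a gene is read from its brightest probe set. The filter and floor choices thus returned the reported value wherever a gene was kept. The SD used as limit, 0.34 to 0.39, also exceeds most of the gene differences, so few moves were possible. Every gene difference as reported is under 2-fold. The median for strain on chow (-0.31) was -0.11 with the smooth muscle scaling, -0.13 with no filter, -0.08 with a filter at the 75th percentile and -0.45 with the mean of all probe sets. That for strain on Western diet (0.08) was 0.19 with quantile normalization, -0.10 with the smooth muscle scaling and -0.22 with the fibroblast and collagen scaling. That for diet in B6 (-0.36) was -0.11 and -0.01 with those scalings, -0.21 with a filter at the 75th percentile, where 4 genes remained, and -0.21 when probe sets named _s_at, _x_at or _a_at were left out. That for diet in Ath29 mice (-0.02) was -0.15 with the smooth muscle scaling and 0.06, above 0, when those probe sets were left out. At 1.5-fold, 1 gene was lower for strain on chow and 2 for diet in B6, against 0 at 2-fold, and 3-fold gave 0. With no filter, 1 gene (Fbln2) was at least 2-fold lower for diet in Ath29 mice, and with those probe sets left out 1 (Fbln1, 1.33) was higher. The additive fit (limma) called 2 genes for strain with a filter at the 75th percentile (Nnmt and Parp3), 1 with no floor beyond 1 (Myh1), and with those probe sets left out 1 for strain (Nxpe4) and 2 for diet (Cxcl1 and Cxcl2), of which 0 are elastic fibre genes. The cause was not tested. No paired analysis was possible because each group has 1 array. With 1 array per group, leaving out an array leaves no value for its comparisons.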
